A study of Mus musculus with 9 samples.

Results

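Some stretches of the mouse genome give rise to many different circular RNAs (circRNAs). The 71 richest of them, counted over the circRNAs that an array names by position, were followed here in mouse liver. The array named 14043 of its 30534 circRNAs by position, with a chromosome, a start and an end on mouse genome build mm9. circRNAs of one chromosome whose spans overlapped, directly or through a chain of others, were joined into 7858 loci. The circRNAs not named by position were not placed, so a locus may hold more circRNAs than are counted here. The 71 loci with at least 10 circRNAs, called hotspot loci below, held 898 circRNAs. They are 0.904% of the loci and hold 6.39% of the circRNAs named by position. The threshold of 10 cut through a continuous range, since 18 loci held 9 circRNAs, 20 held 10 and 13 held 11. The choice used positions alone and no measured value.

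A circRNA forms when the end of an exon is spliced back to the start of the same or an earlier exon, which closes the RNA into a covalent ring. One gene can give several circles, because different exon ends compete for back-splicing and a splice site can be used in more than one circle. Such rings lack free ends, resist exonucleases and tend to be long-lived in cells.

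Liver RNA of male C57BL/6J mice, an inbred strain, was taken at 20 weeks of age from 3 groups. Control mice ate chow for 17 weeks, and the labels list no gavage for them. High fat diet mice ate food with 45% of its energy as fat for 17 weeks and had saline by gavage during the last 5 weeks. Metformin mice had that same diet and a daily gavage of 3 mg of metformin per kg of body weight during the last 5 weeks. Metformin is a biguanide that lowers blood glucose. Diet and gavage cannot be told apart in a comparison with the control group. There were 3 arrays in a group, each with RNA pooled from 4 mice, so p-values measure the spread between pools. Before labelling with Cy3, 5 µg of RNA from 15 mg of liver was digested for 30 minutes with RNase R, which degrades linear RNA. Gene models on mm9 were not used here, so the host genes, exons and introns of the loci are not given, and the liver identity of the samples was not checked against marker genes.

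Values below are levels, which are log2 processed intensities relative to the 75th percentile of the array, so that a level of 0 marks a probe at that percentile. A level also depends on how well a probe binds, so levels of different circRNAs describe the spread of probe signals and are not a ranking of RNA amounts. Between 69.4% and 84.3% of the probes on an array were well above background. The 2 lowest arrays were metformin replicate 3, the only array on its slide, and high fat diet replicate 2. The other slide had 2 columns of arrays. The first held the 3 control arrays with high fat diet replicate 1, and the second held high fat diet replicates 2 and 3 with metformin replicates 1 and 2.

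Hotspot loci were between 19410 and 100404 bases long, with a median of 51020 bases, and lay on 18 chromosomes. Chromosome 2 held 13 of them (18.3% of hotspot loci, beside 8.85% of all circRNAs named by position). Chromosome 11 held 9 (12.7% of hotspot loci, beside 7.58% of those circRNAs). None lay on the X chromosome, which carries only 361 of the 14043 circRNAs named by position. The most compact was chr13:55392492-55411902, with 5.15 circRNAs per 10 kb, and the longest was chr8:63485426-63585830. The 898 circRNAs used 570 different starts and 575 different ends, so starts and ends were used repeatedly. Within the 71 loci, 767 of the 898 circRNAs (85.4%) shared their start or their end with another, beside 77.4% in loci of 3 to 9 circRNAs. In 15 loci every circRNA did so. Up to 5 circRNAs shared one start and up to 7 one end. Spans ran from 110 to 29956 bases with a median of 11223.5. Over all circRNAs named by position they ran from 100 to 29990, so hotspots shared their upper limit.

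The largest locus, chr7:80608522-80664594, shows this layout. Its 22 circRNAs came from 11 starts and 12 ends, and each shared a start or an end with another. The 5 circRNAs that share the start at 80635365 had levels of -3.23, -0.12, -1.71, 0.56 and -0.14, in order of their ends. The 5 that share the end at 80664594 had levels of -1.88, 2.24, 0.94, -1.11 and 2.38, in order of their starts. In both sets the levels were far apart although the site was shared. The 3 circRNAs that share the start at 80642593 were nearly equal, at 2.15, 2.15 and 2.24, although they spanned 124, 5807 and 22001 bases. Their partner probes, a second probe per circRNA whose target the sources do not state, were as bright, at 2.26, 2.18 and 2.01. The brightest circRNA of the locus, chr7:80658976-80660698, read 2.99, 2.69 and 2.86 on the control arrays, 2.77, 2.56 and 2.88 on the high fat diet arrays and 2.87, 3.00 and 3.13 on the metformin arrays. The dimmest tested one, chr7:80635365-80636310, read -3.44, -3.46 and -2.92, then -2.87, -3.39 and -3.55, then -2.89, -3.18 and -3.38. Neither showed groups that stood apart.

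**Figure D1:**
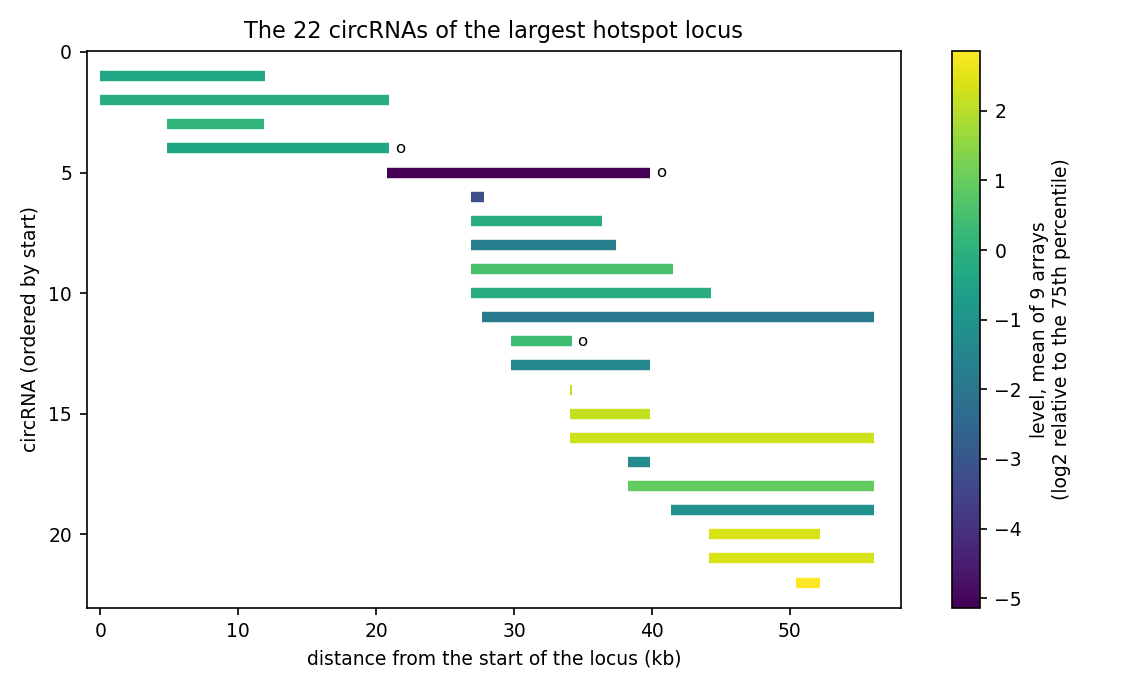
The 22 circRNAs of the largest hotspot locus, each a bar from its start to its end in kb from the start of the locus, coloured by its level as the mean of 9 arrays (log2 relative to the 75th percentile of the array). A letter o marks the 3 circRNAs that were left out of the locus mean for a dim or outlier-flagged spot; levels above 2 are confined to 6 bars in the right part of the locus, and the locus ran from dim to bright within 56072 bases.

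Most hotspot circRNAs gave a signal. A circRNA was tested if some group had it well above background on each of its 3 arrays, which held for 844 of the 898 (94.0%), and 773 (86.1%) were well above background on all 9. The tested shares were 85.8% in loci of 3 to 9 circRNAs and 79.3% for single circRNAs, which overlapped no other circRNA named by position. The median level was -0.89 in hotspot loci, -1.24 in loci of 3 to 9 and -1.77 for single circRNAs. These shares and medians are descriptions without a test. None of the 898 was saturated on any array, 52 had an outlier-flagged spot on some array, and 15 were well above background on none of the 9. A locus was summarised by the mean over its tested circRNAs with a value on all 9 arrays, which were 792 of the 898.

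Levels were spread more widely within a hotspot locus than between hotspot loci. The standard deviation (SD) of levels within a locus had a median of 1.47 over the 71 loci and ran from 0.68 to 3.16. Locus means ran from -2.99 at chr1:58527784-58558734 to 1.23 at chr19:37370373-37418516, with an SD of 1.07. Of the variance of levels over hotspot circRNAs, 27.0% lay between loci. In the 910 loci of 3 to 9 circRNAs with a locus mean it was 40.7%, with a pooled SD within loci of 1.42 beside 1.56 in hotspots. The highest and lowest level in a hotspot locus were 4.53 apart in the median locus, and between 2.17 and 10.6 apart in all 71. Level and span had a Spearman correlation of 0.0027 over the 792 circRNAs, and the mean level of a locus and its number of circRNAs one of -0.11 over 71 loci. Both are descriptions, since circRNAs of a locus share sites.

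**Figure D2:**
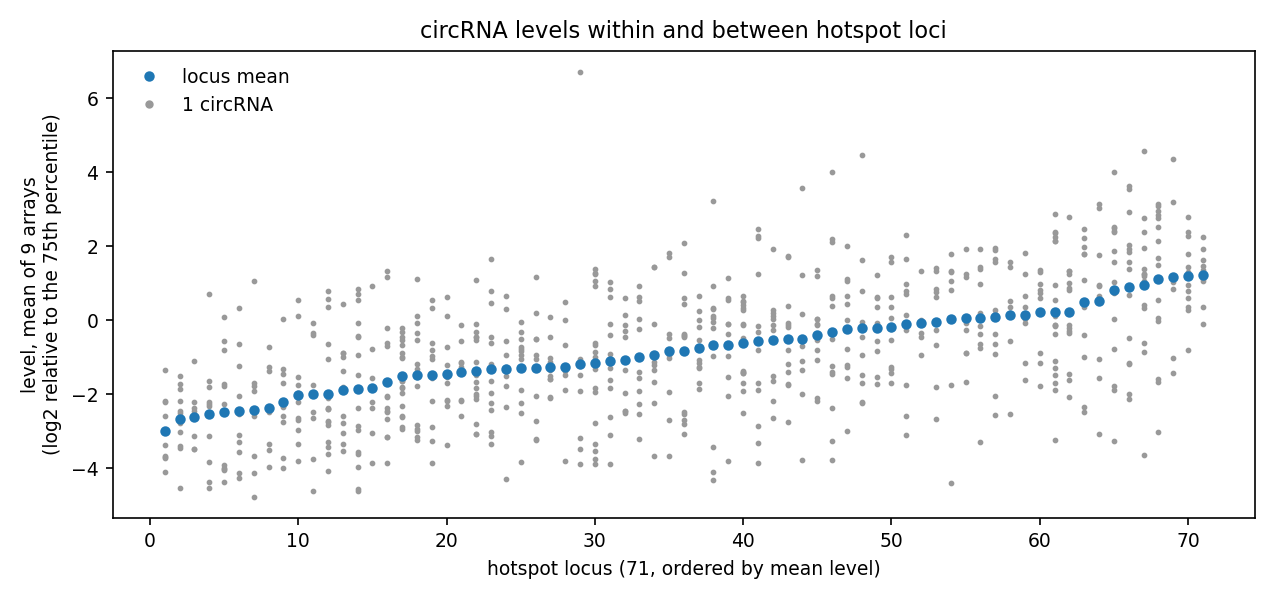
Level of each of the 792 circRNAs used (grey, mean of 9 arrays, log2 relative to the 75th percentile of the array) by hotspot locus, with the locus mean in blue, in order of the mean. Locus means ran from -2.99 to 1.23, and the grey points of single loci cover 2.17 to 10.6 units.

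The widest locus was chr11:23220661-23267553, with 10 circRNAs and an SD of 3.16. It holds the brightest hotspot circRNA, chr11:23263791-23264512, which read 6.72, 6.84 and 6.84 in control, 6.70, 6.40 and 6.62 on the high fat diet arrays and 6.69, 6.68 and 6.92 with metformin. The difference of means, high fat diet minus control, was -0.23, with 6.70 the highest high fat diet reading and 6.72 the lowest control reading. The metformin arrays spread over both groups. No hotspot circRNA was called in the tests below. This circRNA gave 98.0% of the summed signal of its locus, and its next brightest neighbour, chr11:23245150-23255098, had a mean level of -1.06. Its partner probe was as bright, at 6.75. The other wide loci were chr2:155976471-156003121 (SD 2.27) and chr14:103646964-103698080 (SD 2.26). The narrowest were chr2:75689551-75749735 (SD 0.68), where 10 circRNAs lay between -2.09 and 0.08, chr19:37370373-37418516 (SD 0.74), which was also the brightest on average, and chr9:59627350-59675125 (SD 0.79).

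The second brightest hotspot circRNA was chr1:130090037-130093674, in a locus of 14. It read 4.69, 4.66 and 4.68 in control, 4.64, 4.19 and 4.51 on the high fat diet arrays and 4.67, 4.48 and 4.67 with metformin, and gave 43.0% of its locus. As for the brightest one, the difference of means, high fat diet minus control, was -0.23 and was not called. The third brightest was chr5:111132471-111137356, with 4.42, 4.53 and 4.56, then 4.57, 4.09 and 4.47, then 4.53, 4.50 and 4.61, and gave 72.7% of a locus of 10. Each of these 3 read lowest on high fat diet replicate 2. In the median hotspot locus the brightest circRNA gave 28.0% of the signal, in 9 loci it gave over 50%, and the lowest share was 10.9%, at chr11:23270239-23321366. The same circRNA was the brightest on all 9 arrays in 47 of 71 loci.

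The order of circRNAs inside a locus was stable between arrays. The lowest Spearman correlation between any 2 arrays over the circRNAs of a locus had a median of 0.92 over the 71 loci. It was above 0.9 in 40 loci and below 0.8 in 5, with the lowest, 0.30, at chr7:97308958-97337767. Every array carries the same probes, so this order holds probe brightness as well as RNA.

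Partner probes were dimmer for most hotspot circRNAs. The circRNA probe was brighter than its partner for 774 of 898 (86.2%), beside 79.0% in loci of 3 to 9 and 74.1% for single circRNAs. Among the 792 used it was 687 (86.7%). Partner levels were spread more widely inside a locus, with a median SD of 2.32, and 12.9% of their variance lay between loci. All 3 of the brightest hotspot circRNAs had bright partners, at 6.75, 4.73 and 3.51.

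The 10 loci with the most circRNAs held 16 to 22 each. After the largest came chr11:23270239-23321366, chr2:91388931-91441283 and chr4:126545961-126603267 with 20 circRNAs each. The next were chr11:84819310-84894751, chr11:86951092-87031832 and chr7:123485666-123562095 with 18, chr11:77353556-77415263 with 17, and chr2:76685445-76726144 and chr6:83878647-83934889 with 16. Their mean level was lowest in chr2:91388931-91441283 and highest, at 0.90, in chr11:77353556-77415263. The brightest circRNA of that last locus, chr11:77364374-77369200, read 3.53, 3.54 and 3.73 in control, 3.63, 3.45 and 3.67 on the high fat diet arrays and 3.66, 3.67 and 3.83 with metformin, while its dimmest tested one, chr11:77390825-77398996, had a mean level of -2.14. Level and span had a Spearman correlation of only 0.0027 over the hotspot circRNAs used. In the single locus chr11:86951092-87031832 the shortest circRNA of all hotspots, chr11:87029939-87030049, was the brightest at 1.09. A circRNA of 29926 bases, chr11:86951092-86981018, was the dimmest tested one of that locus at -3.08. In the others, apart from the largest locus described above, the brightest tested circRNA lay between -0.21 and 1.38 and the dimmest between -4.62 and -2.51. In 9 of the 10 loci the 3 differences between group means of the locus lay between -0.21 and 0.14. The exception, chr2:76685445-76726144, is described last.

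circRNAs of one hotspot locus deviated from their group means more alike than circRNAs of different loci. The correlation of 2 circRNAs' deviations over the 9 arrays had a median of 0.28 over the 4312 pairs within a locus and of 0.090 over the 308924 pairs from different hotspot loci. It was 0.41 for the 367 pairs that share a start, 0.47 for the 377 that share an end and 0.26 for the 3568 pairs of a locus that share neither. In loci of 3 to 9 circRNAs the same medians were 0.47, 0.51 and 0.31, so the pattern was not limited to hotspots. Hotspot pairs with a shared site were also closer in level, at a median distance of 0.97 (start) and 1.04 (end) against 1.56 for pairs that share neither. All hotspot pairs with a shared site overlap, but only 40.1% of those that share neither do. Shared site and overlap were not told apart. A pair with a shared site also shares that side of the junction, so part of the target of their probes may be the same, and this was not tested. Without the locus chr2:76685445-76726144 the median within loci was 0.28 as well.

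**Figure D3:**
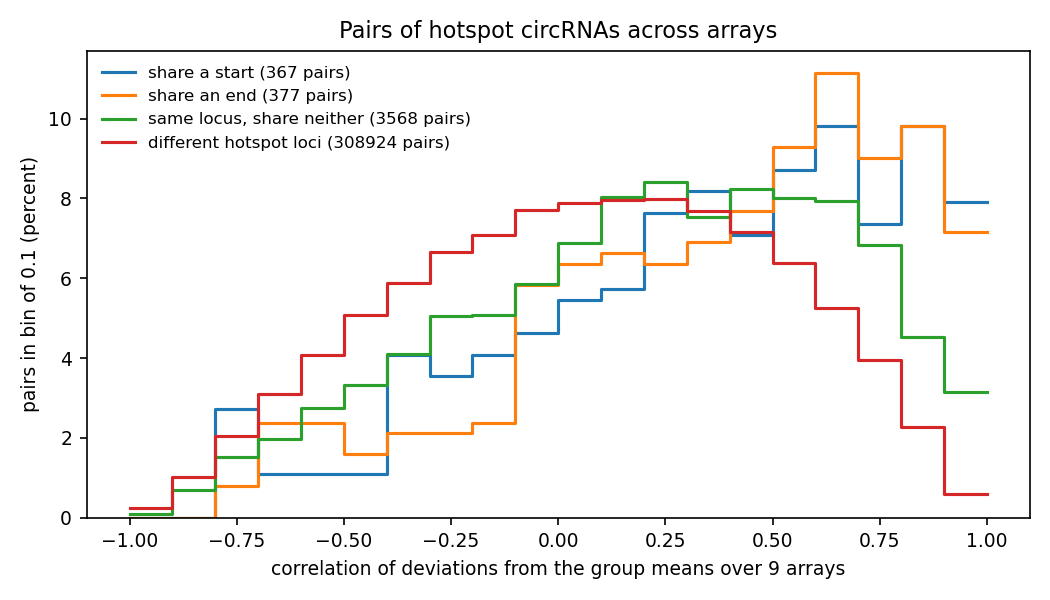
Distribution, in percent of pairs per bin of 0.1, of the correlation over 9 arrays between the deviations of 2 hotspot circRNAs from their group means, for pairs that share a start, share an end, share neither within a locus, or lie in different loci. Medians were 0.41, 0.47, 0.26 and 0.090; all pairs share the same 9 arrays.

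The mean correlation within a locus was above 0.5 in 6 of 71 loci and below 0.1 in 12. It was highest, at 0.97, in chr2:76685445-76726144. The next was 0.65 in chr12:107037861-107067487, where the locus mean was 0.62 on high fat diet replicate 2 and between 0.01 and 0.25 on the other 8 arrays. It was followed by chr5:135680860-135718412, at 0.52 on that array and between -0.12 and 0.15 on the others. High fat diet replicate 2 is 1 of the 2 arrays with the fewest probes well above background, and its part in these correlations was not tested.

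The comparison of the high fat diet with control asks whether the diet, with gavage, went with other levels. No hotspot circRNA and no hotspot locus passed the test (limma, adjusted p under 0.05). Of 840 hotspot circRNAs tested 0 were called, beside 0% of all 25777 circRNAs, and the smallest adjusted p was 0.351. At an unadjusted p under 0.05, 28 were higher (3.33%) and 29 lower (3.45%), beside 2.07% and 5.18% of all circRNAs tested. The median difference was -0.02 over hotspot circRNAs and -0.06 over all. With a trended, robust variance model the count of hotspot circRNAs called was also 0. Of the hotspot circRNAs 392 were higher and 448 lower, but this split depends on the scaling and was 487 and 353 after quantile normalisation. The median standard error of a circRNA's difference was 0.16.

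Locus means varied less than single circRNAs, as averaging over several circRNAs makes them do, with a median SD between replicates of 0.12 against 0.19. Of the 71 hotspot loci 0 were called in this comparison, beside 0.102% of the 981 loci tested, which is 1 locus of fewer than 10 circRNAs. At an unadjusted p under 0.05 there were 6 (8.45%), beside 9.28% of all loci. Locus means were higher in 36 loci and lower in 35, and 46 and 25 after quantile normalisation. In 12 loci (16.9%) the 3 arrays of one group did not overlap those of the other, beside 14.5% of all loci.

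The lowest hotspot locus was chr1:167263420-167359446, with 11 circRNAs. Its mean level was 0.77, 0.58 and 0.62 in control, 0.34, 0.12 and 0.42 on the high fat diet arrays and 0.59, 0.56 and 0.49 with metformin. Every high fat diet array was below every other array. The difference was -0.37 ± 0.10 (standard error), with an unadjusted p of 0.00361 and an adjusted p of 0.364, and all 11 circRNAs were lower. Partner probes of the locus were lower by a like amount, with a difference of -0.34. Within the first column of the slide, which holds 1 high fat diet array, the difference was -0.32. Of the 5 hotspot circRNAs with the smallest p among the lower ones, 3 lay here. For chr1:167318789-167322363 the levels were 0.53, 0.57 and 0.68 in control and 0.02, 0.03 and 0.19 on the high fat diet, a difference of -0.52 ± 0.12 with an adjusted p of 0.351. The others, chr1:167297577-167320664 and chr1:167287560-167297636, differed by -0.45 and -0.44.

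Next lowest were chr6:58793598-58844618 at -0.36 ± 0.15 (adjusted p 0.466) and chr14:15540066-15623678 at -0.29 ± 0.13 (adjusted p 0.532). The first of these held the most uneven differences of all hotspots, with an SD of 0.56 between its circRNAs. Its circRNA chr6:58806587-58813043 read -3.55, -3.81 and -4.42 in control, -5.07, -6.05 and -5.78 on the high fat diet arrays and -5.58, -5.52 and -1.63 with metformin, so that metformin replicate 3 stood far above all other arrays. It was well above background on the 3 control arrays and on metformin replicate 3, and on no high fat diet array, and it differed by -1.71. This circRNA was tested only because of the control group, where it was high, so its difference is no support for a change. Without this circRNA the mean difference of the other 7 circRNAs used was -0.17, with single values from -0.40 to 0.07. In chr14:15540066-15623678 all 11 circRNAs were lower, and chr14:15611340-15623678 differed most, by -0.76 ± 0.19 (adjusted p 0.358), at -3.13, -3.32 and -2.73 in control and -3.52, -4.13 and -3.80 on the high fat diet. High fat diet replicate 2 was the lowest array in both loci, and both groups overlapped.

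The locus chr3:40554597-40589320 was the second highest, with 12 circRNAs. It read -1.56, -1.25 and -1.14 in control, -1.06, -0.70 and -0.95 on the high fat diet arrays and -0.89, -1.16 and -1.08 with metformin. High fat diet and control did not overlap, the difference was 0.42 ± 0.13 (adjusted p 0.364), and all 10 circRNAs used were higher. Partners were higher by 0.44, and within the first column the difference was 0.26. Set as a ratio to the partner, the difference turned to -0.14. Ratios here and below used only circRNAs whose partner was also well above background on all arrays of some group. The ratio of a locus could thus cover fewer circRNAs than its main value. Its circRNA chr3:40560923-40564837 was among the 5 with the smallest p among the higher ones, at -2.33, -2.33 and -2.09 in control and -1.98, -1.46 and -1.73 on the high fat diet. The locus chr9:59627350-59675125 differed by 0.28 ± 0.12 (adjusted p 0.508), with all 8 circRNAs used higher. Its partners differed by 0.44, and as a ratio to the partner the difference turned to -0.20. Its circRNA chr9:59631278-59657295 had the smallest p among the higher ones, with 0.48 ± 0.13 (adjusted p 0.43).

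Some single circRNAs differed more than the rest of their locus. In chr11:97073594-97128993 the circRNA chr11:97109516-97128993 read 2.10, 2.23 and 1.93 in control and 1.70, 1.06 and 1.38 on the high fat diet, a difference of -0.71 ± 0.19 (adjusted p 0.407), and relative to its locus neighbours it differed by -0.60. Its partner differed by -0.86. In chr19:37023558-37084672 the circRNA chr19:37032863-37041342 was higher by 0.51 ± 0.15 (adjusted p 0.48) and by 0.48 relative to its neighbours, while its partner differed by 0.01. Across all circRNAs of loci of 3 or more, each was also tested against the mean of the others in its locus. In this comparison 0 of 792 hotspot circRNAs were called, beside 0% of 4533, and 41 (5.18%) had an unadjusted p under 0.05, beside 5.43%.

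**Figure D4:**
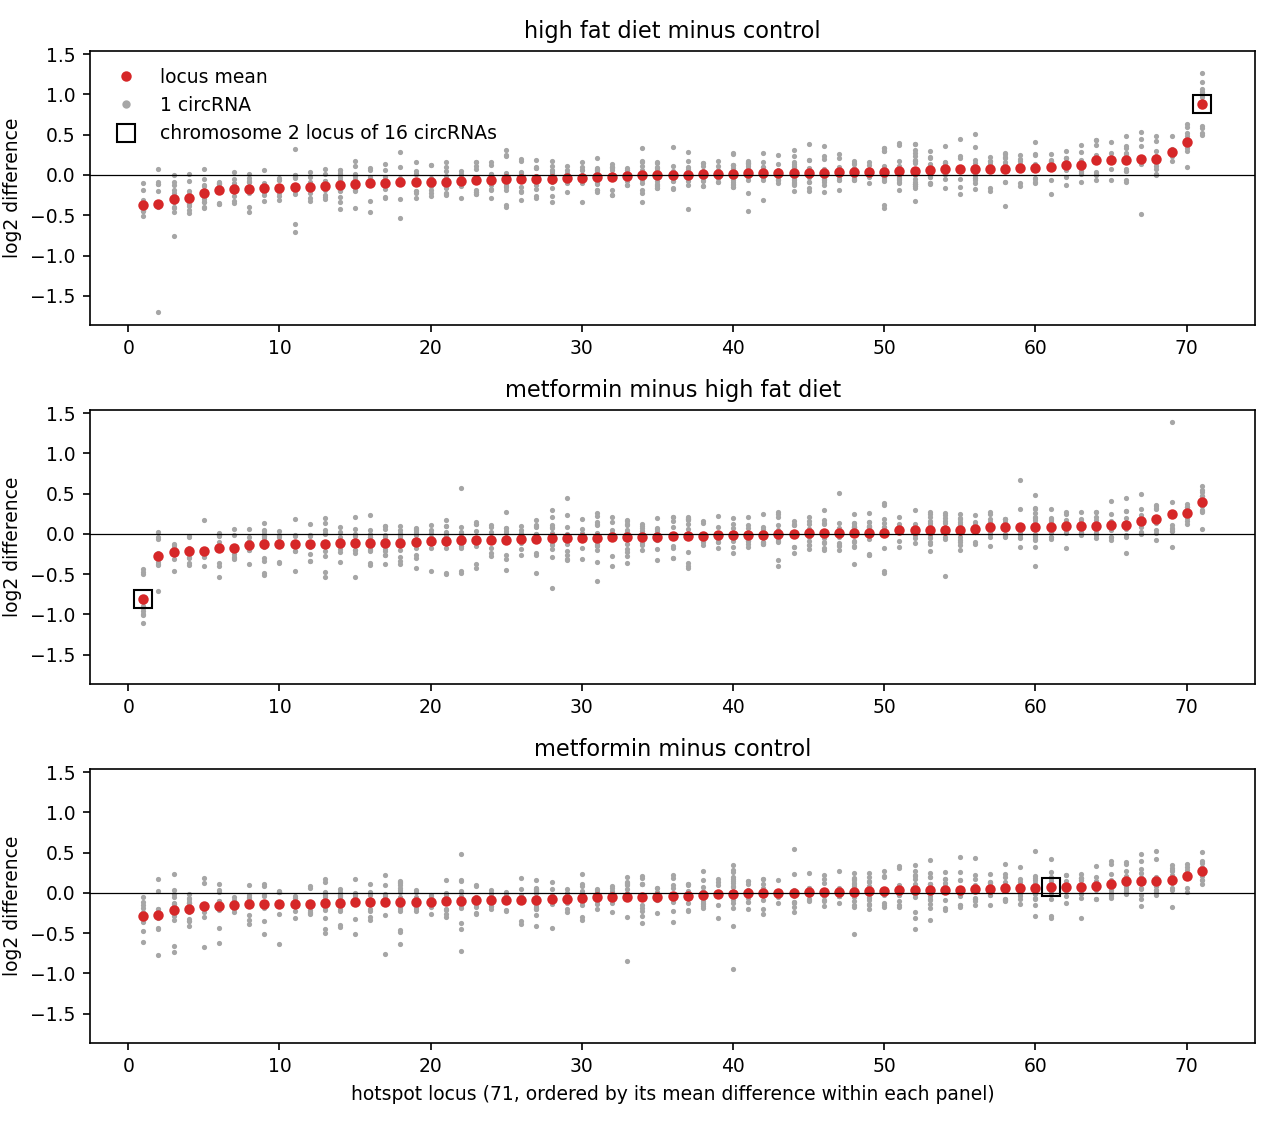
Difference of group means (log2) for each circRNA used (grey) and for the locus mean (red) in the 71 hotspot loci, ordered by locus mean within each of the 3 comparisons. In the high fat diet against control the other 70 locus means lie between -0.37 and 0.42, and the locus chr2:76685445-76726144 (black square) stands apart at 0.88 and -0.81 in the 2 comparisons with the high fat diet group and at 0.07 for metformin against control.

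The comparison of metformin with the high fat diet asks whether the drug went with other levels under the same diet. It shares the high fat diet arrays with the comparison above, so a locus that is low on those arrays appears in both. Of 842 hotspot circRNAs 0 were called, beside 0% of all 25828, and the smallest adjusted p was 0.969. At an unadjusted p under 0.05, 17 were higher (2.02%) and 24 lower (2.85%), beside 2.32% and 1.58%. Of 71 loci 0 were called, beside 0% of 981, and 2 had an unadjusted p under 0.05 (2.82%, beside 3.77%). In 7 loci (9.86%) the groups did not overlap, beside 6.93% of all loci. Locus means were higher in 27 loci and lower in 44, but higher in 47 and lower in 24 without the 2 arrays of lowest detection.

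The locus chr12:87184728-87253540 had the highest difference. It read -1.51, -1.64 and -1.42 on the high fat diet arrays, -1.11, -1.07 and -1.22 with metformin and -1.13, -1.47 and -1.29 in control. Metformin and high fat diet arrays did not overlap, and all 13 circRNAs were higher with metformin. The difference was 0.39 ± 0.11, with an unadjusted p of 0.0035 and an adjusted p of 0.976. It was 0.44 within the second column of the slide and 0.44 for the partners, and -0.039 as a ratio to the partner. Of the 5 circRNAs with the smallest p among the higher ones, 4 lay in this locus, with differences of 0.47 to 0.55. One of them, chr12:87230109-87233160, read -2.47, -3.10 and -2.66 on the high fat diet arrays and -2.21, -2.25 and -2.20 with metformin. The second highest locus was chr1:167263420-167359446, at 0.26 ± 0.10 (adjusted p 0.976), with all 11 circRNAs higher, and the third was chr6:58793598-58844618 at 0.24, which was 0.081 without chr6:58806587-58813043, the circRNA that was high on metformin replicate 3, and -0.026 without the 2 arrays of lowest detection.

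The lowest differences after chr2:76685445-76726144 were in chr10:98431328-98479664, at -0.27 ± 0.13, and in chr7:109295714-109340556, at -0.23 ± 0.12, each with an adjusted p of 0.976. In the second, all 11 circRNAs were lower with metformin, and high fat diet replicate 2 alone read 0.56 where the other 8 arrays lay between -0.06 and 0.18. Among single circRNAs, chr11:97105742-97109637 had the smallest p of the lower ones. It read -2.74, -2.47 and -2.71 on the high fat diet arrays and -2.90, -3.12 and -3.48 with metformin, a difference of -0.52 ± 0.16 (adjusted p 0.969). In the largest locus, chr7:80635365-80645921 differed by -0.40 ± 0.15 while the locus mean differed by 0.09. Relative to the other circRNAs of their locus 0 of 792 were called, beside 0% of 4533, and 35 (4.42%) had an unadjusted p under 0.05, beside 4.39%.

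Metformin against control compares drug, diet and gavage together with chow, and shares its arrays with both comparisons above. Of 841 hotspot circRNAs 0 were called, beside 0% of all 25763, and the smallest adjusted p was 0.538. At an unadjusted p under 0.05, 19 were higher (2.26%) and 24 lower (2.85%), beside 1.64% and 3.43%. Of 71 loci 0 were called, beside 0% of 981, with 2 at an unadjusted p under 0.05 (2.82%, beside 4.99%). In 9 loci (12.7%) the groups did not overlap, beside 11.6%. Locus means were higher in 29 and lower in 42, but higher in 41 and lower in 30 without the 2 arrays of lowest detection. Relative to their locus 0 of 792 circRNAs were called, beside 0% of 4533, with 46 (5.81%) at an unadjusted p under 0.05, beside 5.76%.

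The locus chr16:93841616-93871497, with 11 circRNAs, read -2.29, -2.37 and -2.26 in control, -2.55, -2.62 and -2.60 on the high fat diet arrays and -2.44, -2.55 and -2.73 with metformin. Every array of mice on the high fat diet was below every control array. The difference was -0.27 ± 0.10 for metformin (adjusted p 0.9) and -0.28 ± 0.10 for the high fat diet against control (adjusted p 0.364), and the partners differed by -0.13 and -0.15. The other low loci were chr14:15540066-15623678 at -0.28 ± 0.13 and chr7:123485666-123562095 at -0.21 ± 0.10, where metformin replicate 3 was the lowest or second lowest array. The highest were chr3:40554597-40589320 at 0.27, chr9:59627350-59675125 at 0.21 and chr12:87184728-87253540 at 0.16, with adjusted p of 0.931 each. Their partners differed by 0.40, 0.33 and 0.22, and as a ratio to the partner all 3 differences turned, to -0.18, -0.12 and -0.072.

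The smallest p of any hotspot circRNA in this comparison belonged to chr11:97105742-97109637, which read -2.36, -2.46 and -2.51 in control and -2.90, -3.12 and -3.48 with metformin. The difference was -0.72 ± 0.16 (unadjusted p 0.000794, adjusted p 0.538). Its partner differed by -0.20. Its neighbour chr11:97109516-97128993, which was lower on the high fat diet, differed here by -0.45. On the higher side, chr19:37032863-37041342 read -1.89, -2.02 and -1.80 in control, -1.67, -1.34 and -1.18 on the high fat diet arrays and -1.40, -1.30 and -1.37 with metformin. The difference of metformin from control was 0.55 ± 0.15 (adjusted p 0.748). A dim circRNA, chr1:136504265-136509946, had a difference of -0.85 ± 0.27 (adjusted p 0.86), but it was well above background on 3 control arrays, on 1 metformin array and on no high fat diet array. It was tested only because of the control group, where it was high, so its difference is no support for a change.

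For the high fat diet against control the median SD between circRNAs of a locus was 0.15, and the SD of locus means was 0.17. Without the locus chr2:76685445-76726144 the SD of locus means was 0.14. The median SD within a locus was no larger than the median standard error of a single circRNA's difference, 0.16. For the difference of a hotspot locus mean the median standard error was 0.10. How much of the spread between loci reflects the spread between pools was not tested. Of the variance of these differences 48.8% lay between loci, beside 43.5% in loci of 3 to 9, but it was 35.2% without the locus chr2:76685445-76726144. For metformin against the high fat diet 39.1% lay between loci and 25.3% without that locus, and for metformin against control 23.3% and 23.6%. All used circRNAs of a locus were on one side in 8 of the 71 loci for the high fat diet against control (11.3%, beside 35.7% of all 981 loci), 4 higher (beside 12%) and 4 lower (beside 23.6%). Among the 4 higher was chr2:76685445-76726144, whose difference turned to -0.32 without high fat diet replicate 3. There were 5 such loci for metformin against the high fat diet (7.04%, beside 30.2%), 2 higher (beside 14.2%) and 3 lower (beside 16%), the same locus among the lower ones. For metformin against control there were 7 (9.86%, beside 31%), 2 higher (beside 10.5%) and 5 lower (beside 20.5%). Most of the 981 loci hold fewer circRNAs, which makes one side for all easier to reach.

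One locus stood apart from the other 70. The 16 circRNAs of chr2:76685445-76726144 shared one pattern over the 9 arrays that crosses the groups. The mean of its 12 tested circRNAs was -2.29, -2.78 and -1.56 on the control arrays, -2.43, -2.62 and 1.07 on the high fat diet arrays and -0.93, -2.83 and -2.66 on the metformin arrays. High fat diet replicate 3 was far above all others, metformin replicate 1 was next, followed by control replicate 3. The SD between replicates of the locus mean was 1.39 when pooled over groups, and the next highest of any hotspot locus was 0.22.

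The pattern held circRNA by circRNA. All 16 were highest on high fat diet replicate 3 and second highest on metformin replicate 1, and 15 had control replicate 3 as the next array after these. The gap between high fat diet replicate 3 and the next array was between 1.33 and 2.68, with a median of 2.17. chr2:76688627-76690194 read -1.60, -2.07 and -0.13 in control, -1.62, -1.98 and 2.70 on the high fat diet arrays and 0.43, -1.88 and -1.90 with metformin. chr2:76691662-76694423, the dimmest tested one, read -4.11, -4.82 and -2.66, then -4.23, -4.72 and 0.46, then -2.22, -4.77 and -4.82. The brightest, chr2:76685445-76696044, read 0.34, 0.00 and 0.52, then 0.41, -0.30 and 2.22, then 0.84, 0.06 and -0.06. Of the 16 partner probes 13 were also highest on high fat diet replicate 3, and the 3 that were not had levels near the bottom of the scale.

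**Figure D5:**
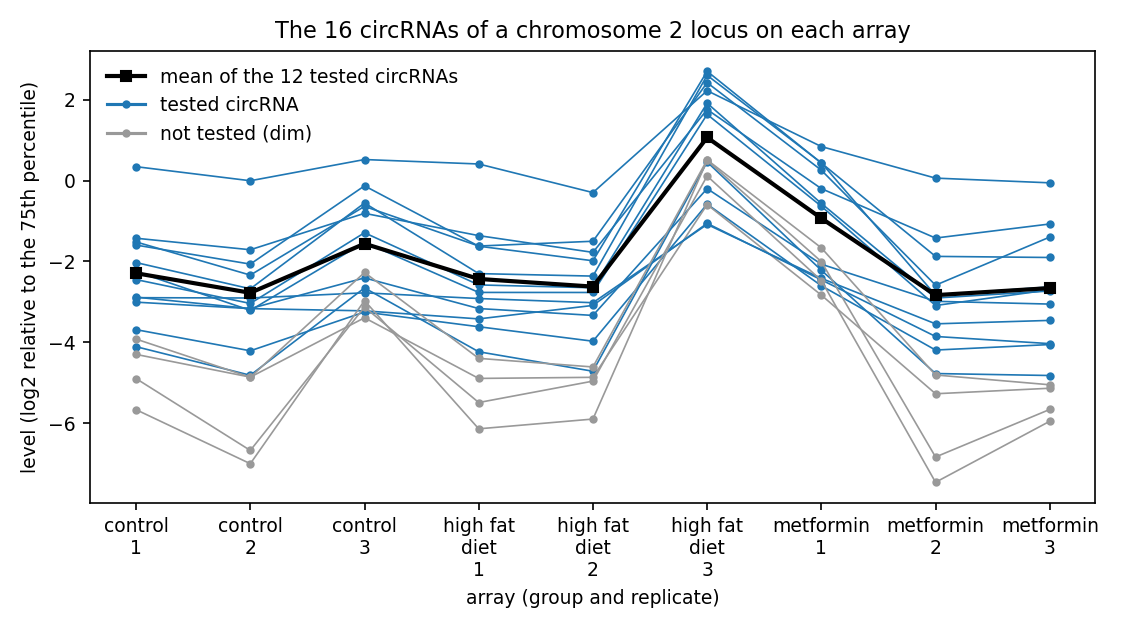
Level of the 16 circRNAs of chr2:76685445-76726144 on each of the 9 arrays (log2 relative to the 75th percentile of the array), with tested circRNAs in blue, untested dim ones in grey and the mean of the 12 tested ones in black. The mean is 1.07 on high fat diet replicate 3, -0.93 on metformin replicate 1, -1.56 on control replicate 3 and between -2.83 and -2.29 on the other 6 arrays.

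The group differences of this locus rested on that array. The high fat diet minus control difference was 0.88 ± 0.81 (adjusted p 0.84), the highest of the 71, with all 12 circRNAs used higher, but it was -0.32 without high fat diet replicate 3. Metformin minus high fat diet was -0.81 ± 0.81 (adjusted p 0.976), the lowest of the 71, and 0.39 without that array. Neither differed beyond the spread between replicates. High fat diet replicate 3 had 77.1% of its probes well above background, and its 75th percentile was within the range of the other arrays.

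Few other circRNAs did the same. Of 24546 tested circRNAs with a value on every array, 15 were more than 1.5 above every other array on high fat diet replicate 3, and 9 of these 15 lay in this locus. The same count was 15 on control replicate 1, of which 0 lay in hotspot loci, and 7 on metformin replicate 3, of which 1 was the chromosome 6 circRNA given above. On each of the other 6 arrays it was 5 or fewer, with none in a hotspot locus. Around the locus, within 400 kb on either side, lay 10 more circRNAs named by position, and this window was chosen after the values were seen. The 6 nearest, up to 132 kb before and 18.2 kb after the locus, were all highest on high fat diet replicate 3. For chr2:76584606-76584740 the levels were -3.98, -4.21 and -2.66 in control, -3.84, -6.01 and -0.16 on the high fat diet arrays and -2.64, -3.89 and -5.68 with metformin. The 4 farther ones, 323 kb before and 161 kb and 280 kb after, were each highest on another array. Only 2 of the 6 passed the filter on dim probes. What sets high fat diet replicate 3 apart at this locus was not tested.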

How the data were processed

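Circular RNA was measured on 9 one-colour arrays, 3 for each of 3 groups. The deposited scanner files hold Cy3 intensities that Feature Extraction 11.5.1.1 had background-subtracted, per the file headers, on a grid named mm9, while the submitters' processing notes name version 10.7. The authors' deposited table holds log2 values whose median is the same on every array, 6.51, with a floor of -3.32. These deposited values served as an alternative.

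Here log2 processed intensities, without spots flagged as outliers, were set relative to the 75th percentile of non-control probes on each array. circRNAs well above background on all arrays of some group were tested over all 3 groups with limma 3.58.1 (R 4.3.3) and Benjamini-Hochberg adjustment over all such circRNAs, and locus means over the 981 loci with at least 3 usable circRNAs. The code was tested on simulated data. Named were the 10 loci with the most circRNAs, the 3 loci with the highest and the 3 with the lowest difference per comparison, the 5 circRNAs with the smallest p per direction, the 3 widest and narrowest loci, the brightest and dimmest circRNA of the largest loci and the 3 brightest circRNAs. Other loci and circRNAs named were chosen after their values were seen. Members and lists were chosen with earlier results of these data known. Slide as a random block and array column as a covariate were run as alternatives. The covariate put metformin replicate 3, from the other slide, into the first column with the control arrays. On the shared slide no column held both control and metformin arrays, so neither alternative removes a batch from that comparison. Host genes, gene groups and cell type markers were not tested, because gene models on mm9 were not used here. The number of arrays limits the precision.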

Additional observations from a re-analysis of the deposited data

How the results depend on the processing

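Counts of hotspot circRNAs called at an adjusted p under 0.05 (limma) were 0 under the alternatives run except the authors' deposited log2 values. Those called 1 circRNA for the high fat diet against control and 1 for metformin against control, and likewise 1 and 1 relative to the rest of the locus. In both cases it was chr11:106721026-106726091, at 5.75, 6.02 and 9.38 on the control arrays and at the floor of -3.32 on the other 6, while the scanner intensities gave -0.21 (adjusted p 0.782) and -0.08 (adjusted p 1). No alternative run called a hotspot locus.

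The median SD of levels within a locus, 1.47, was 1.16 with normexp background correction under either scaling, 3.57 on the deposited values, 1.72 without a filter on dim probes or with all circRNAs of a locus, 1.33 with circRNAs well above background on all 9 arrays, 1.09 as a ratio to the partner and 1.51 with outlier-flagged spots kept. The share of the brightest circRNA, 28.0%, was 25.5% with normexp and the 75th percentile, 25.5% with normexp and quantile scaling, and 26.3% with flagged spots kept. The median SD of the difference within a locus was 0.12 after quantile scaling and 1.12 on the deposited values for the high fat diet against control, 1.18 on the deposited values for metformin against the high fat diet, and 1.20 on the deposited values, 0.21 with array column as covariate and 0.22 as a ratio to the partner for metformin against control. Leaving out 1 array gave 0.15 to 0.19 for the first of these. With array column as covariate, metformin and control met within a column only through metformin replicate 3, from the other slide.

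As a ratio to the partner probe, the high fat diet minus control difference turned to 0.037 in chr6:58793598-58844618, -0.20 in chr9:59627350-59675125, -0.14 in chr3:40554597-40589320, -0.24 for chr14:103684467-103688837, -0.44 for chr3:40560923-40564837 and 0.16 for chr11:97109516-97128993. Metformin minus high fat diet turned to 0.059 in chr2:76685445-76726144, -0.039 in chr12:87184728-87253540 and -0.077 for chr12:87204514-87219428, and metformin minus control to -0.072 in chr12:87184728-87253540, -0.12 in chr9:59627350-59675125 and -0.18 in chr3:40554597-40589320. On the deposited values chr6:58793598-58844618 turned to 0.93 and, for metformin minus high fat diet, to -0.29, and chr10:98431328-98479664 to 0.47. Without the 2 arrays of lowest detection the chromosome 6 locus was at -0.026 for metformin minus high fat diet. Leaving out, in each named locus, the circRNA whose difference lies farthest from the locus median, an alternative chosen after seeing the data, reversed no difference, and the chromosome 6 locus moved to -0.17 and 0.081. With 1 array left out chr2:76685445-76726144 ran from -0.32 (without high fat diet replicate 3) to 1.54 (without replicate 2), and from -1.51 to 0.39 for metformin minus high fat diet. Ratios to the partner left out circRNAs with a dim partner, so a turned ratio of a locus can also reflect a smaller set of circRNAs. The cause of these changes was not tested.

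Deviations from group means correlated from -0.14 to 0.19 over the 9 pairs of arrays with the same replicate number. For pairs with different numbers they ran from -0.26 to 0.28, so the same number went with no visible shared deviation. This cannot decide whether the numbers pair the samples, because the deviations within a group cancel out and a weak pairing could go unseen. With a replicate block 0 hotspot circRNAs and 0 hotspot loci were called. Over all circRNAs tested for the high fat diet against control, 4 were called with the block and 7 with a trended, robust variance model, against 0 without either, and over all loci 2 were called with the block against 1.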
